A study of Rattus norvegicus with 7 samples.

Results

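Astrocytes are the glial cells that clear glutamate from synapses, convert it to glutamine, buffer potassium and water, and join one another through gap junctions into a coupled network. Their endfeet cover brain capillaries. Astrocytes differ in form and gene expression between brain regions, and the genes described here are those most often used to recognise them. They are the glutamate transporters Slc1a2 and Slc1a3, glutamine synthetase (Glul), the connexins Gja1 and Gjb6, the water channel Aqp4, the intermediate filament Gfap, the calcium-binding protein S100b, the folate enzyme Aldh1l1 and angiotensinogen (Agt). Their rows were found by gene symbol. All 10 were found in both deposited tables, out of 15805 symbols that the tables share, and all passed the filter on low values, averaging 1 FPKM or more in either tissue, as did 10736 symbols in all.

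The 7 libraries were poly-A RNA sequencing libraries of whole dissected brain tissue, 4 of hippocampus and 3 of hypothalamus. All were from male Sprague Dawley rats, 2 months old when the diet began and given for 6 weeks a diet of DHA, docosahexaenoic acid, which is an omega-3 fatty acid. Libraries of chow-fed rats are not analysed here, and nothing below compares diets. The labels number the replicates without saying whether a library held 1 animal or several, or whether the tissues came from the same animals. Spread between libraries may therefore be partly technical.

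Values are FPKM, fragments scaled to transcript length and library size, and can be compared between genes because they are per length. The depth behind them is unknown, since the tables hold no counts. Deposited FPKM summed to between 370020 and 391349 in hippocampus and to between 443335 and 471484 in hypothalamus. The tissues are in separate tables with their own locus numbers. Differences between tissues are therefore described on values rescaled to the same sum in each library, with no p-value. Whether a difference lies with the tissue or with the making of its table cannot be told apart. Means are given ± SD over 4 hippocampus and 3 hypothalamus libraries. The call used below, higher in a given tissue, means that the libraries of the tissues did not overlap and that the means of log2(value + 1) were at least 2-fold apart. The tissue labels were checked against defining genes. Slc17a7, a glutamatergic marker, was at 570.9 to 847 FPKM in hippocampus and no more than 0.985 FPKM in hypothalamus, and Avp (vasopressin) was at 2818 to 3712 FPKM in hypothalamus and no more than 2.07 FPKM in hippocampus. The choroid plexus list summed to 35.4 to 6005 FPKM over the hippocampus libraries, lowest in replicate 2, and to 35.5 to 71.9 FPKM in hypothalamus.

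Of the 10 astrocyte genes, 4 were called higher in hypothalamus (Agt, Aldh1l1, Gjb6 and Aqp4), 1 was called higher in hippocampus (Slc1a2), and 5 were not called. By the same rule 13.4% of all compared symbols were called higher in hypothalamus and 14.5% higher in hippocampus, 27.9% in all, beside 4 and 1 of 10. In FPKM as deposited, 1819 symbols were called higher in hypothalamus and 928 in hippocampus (66.2% of calls towards hypothalamus, against 48.0% after rescaling), and the median of all symbols moved to 0.21 and that of the 10 genes to 0.64. Without the 2-fold minimum, 4 of the 10 genes had no overlap towards hypothalamus (24.4% of all symbols) and 2 towards hippocampus (28.2%), 6 in either direction (52.6%). The median difference over the 10 genes was 0.35 towards hypothalamus on the log2 scale, against −0.05 over all compared symbols. By the 2-fold rule, calls of all 10 genes were identical under each of the 14 alternatives tried for scaling, pseudocount, loci and replicates. In bulk tissue, more astrocytes and more RNA per astrocyte cannot be told apart. The genes differed from one another in direction, and ratios between them within a library do not depend on scaling.

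**Figure D1:**
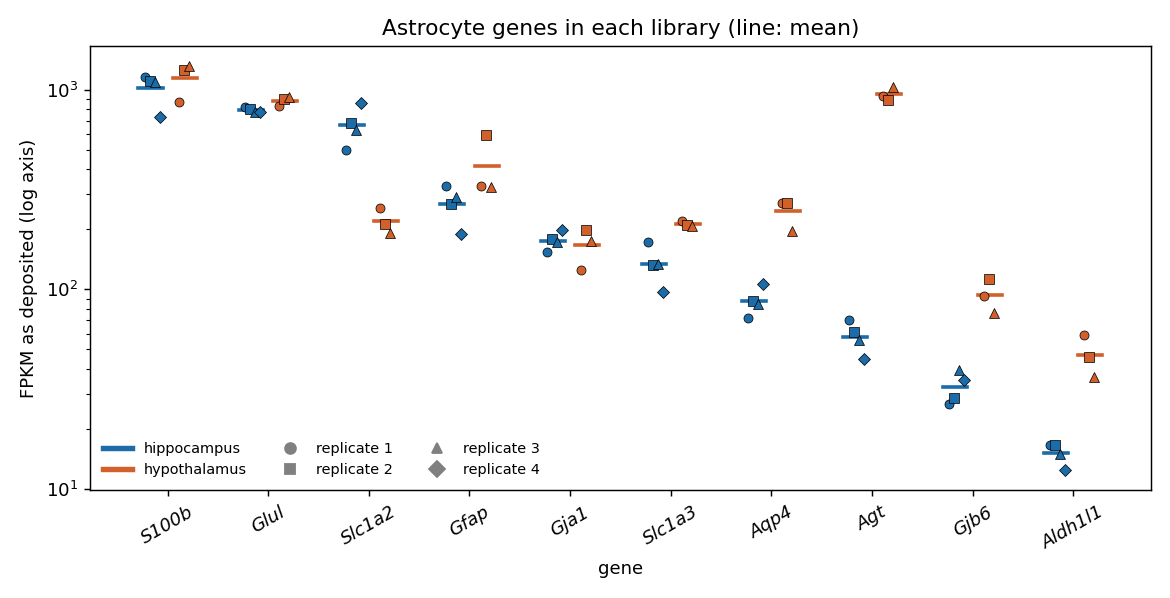
FPKM as deposited (log axis) of the 10 astrocyte genes in each of the 4 hippocampus and 3 hypothalamus libraries, with replicates as symbols and the mean as a line. Agt stands at 44.7 to 70.4 FPKM in hippocampus and at 893 to 1034 FPKM in hypothalamus, while Slc1a2 is the only one of the 10 with every hippocampus library above every hypothalamus library.

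Slc1a2 encodes GLT-1, the main glutamate transporter of forebrain astrocytes, and Slc1a3 encodes GLAST, its close relative. Slc1a2 was at 503.5, 687, 632 and 863 FPKM in hippocampus replicates 1 to 4 and at 257, 214 and 191 FPKM in hypothalamus replicates 1 to 3. The tissues did not overlap, with every hippocampus library the higher. The mean was 672 ± 149 FPKM (SD, n = 4) against 221 ± 33.5 FPKM (SD, n = 3), a difference of −1.89 on the log2 scale after rescaling. Only 516 of the 10736 compared symbols lay further towards hippocampus.

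Slc1a3 was at 172, 133, 134 and 97.4 FPKM in hippocampus and at 221, 212 and 207 FPKM in hypothalamus. Every hypothalamus library was higher in deposited FPKM, but after rescaling the libraries overlapped (279 to 501 against 467 to 526) and the difference was 0.40 on the log2 scale. The symbol has a second locus in the hippocampus table, listed at 1.5, 75.3, 51.0 and 64.8 FPKM, and none in the hypothalamus table. With the loci summed, hippocampus read 174, 208, 185 and 162 FPKM and the difference was −0.03. With the highest locus alone, every hypothalamus library was higher under 3 of the 4 scalings, at 0.69 in FPKM as deposited, 0.54 by upper quartile and 0.44 by median of ratios. Its direction depended on the second locus.

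Within each library, Slc1a2 was 2.92, 5.17, 4.73 and 8.86 times Slc1a3 in hippocampus and 1.16, 1.01 and 0.922 times in hypothalamus. The transporter pair was thus near parity in hypothalamus and led by GLT-1 in hippocampus, with no overlap. With all loci summed the ratio was 3.75 ± 1.08 (SD, n = 4) in hippocampus and 1.31 ± 0.149 (SD, n = 3) in hypothalamus, still without overlap. Slc1a2 has a second locus in both tables, at 2.05 to 3.77 FPKM in hippocampus and at 0, 95.4 and 78.4 FPKM in hypothalamus replicates 1 to 3.

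The promoters of this pair are shown because the balance of the paralogs differed between the tissues. Each is 300 bases, from 250 before to 50 after the first start that RefSeq lists in the build GRCr8, 5′ to 3′ on the gene's strand, with CpG dinucleotides (CG), the usual sites of DNA methylation in mammals, in capitals. Slc1a2 lies at chr3:109459859-109460158 (plus strand) and Slc1a3 at chr2:59557759-59558058 (minus strand).
Slc1a2: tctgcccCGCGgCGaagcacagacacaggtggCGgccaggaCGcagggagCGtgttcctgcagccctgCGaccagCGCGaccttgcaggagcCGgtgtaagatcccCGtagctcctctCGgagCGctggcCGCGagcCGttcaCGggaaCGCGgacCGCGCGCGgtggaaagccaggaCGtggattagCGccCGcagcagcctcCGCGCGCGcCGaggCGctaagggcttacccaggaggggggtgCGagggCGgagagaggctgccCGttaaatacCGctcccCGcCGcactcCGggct
Slc1a3: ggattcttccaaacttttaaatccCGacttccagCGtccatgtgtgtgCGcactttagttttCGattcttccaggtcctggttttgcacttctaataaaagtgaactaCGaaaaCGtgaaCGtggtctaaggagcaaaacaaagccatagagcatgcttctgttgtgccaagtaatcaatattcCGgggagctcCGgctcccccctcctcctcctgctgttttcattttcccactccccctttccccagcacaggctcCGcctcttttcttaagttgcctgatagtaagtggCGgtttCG
The Slc1a2 promoter is 71.0% G or C with 39 CpG, a number reached by 4% of the 27457 promoters in the table. The Slc1a3 promoter is 48.3% G or C with 12 CpG, reached by 39.8% of promoters. The median promoter had 7 CpG.

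Glul encodes glutamine synthetase, which turns the glutamate that astrocytes take up into glutamine. It was at 826, 805, 777 and 777 FPKM in hippocampus and at 828, 898 and 921 FPKM in hypothalamus. Its direction between tissues followed the scaling. It was −0.15 on the log2 scale after rescaling, with no overlap, and 0.15 in FPKM as deposited, with every hypothalamus library higher. Under upper-quartile and median-of-ratios scaling the tissues overlapped, at −0.01 and −0.11. Its ratio to Slc1a2 separated the tissues under any scaling, at 1.64, 1.17, 1.23 and 0.900 in hippocampus and 3.22, 4.20 and 4.82 in hypothalamus. The size of this ratio depended on the second Slc1a2 locus. With loci summed it was 1.23 ± 0.305 in hippocampus and 3.18 ± 0.260 in hypothalamus, still without overlap. Relative to glutamine synthetase, RNA of the transporter was thus lower in hypothalamus.

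Among other genes of glutamate and glutamine handling, calls went in both directions. Of 11 compared, 1 was called higher in hypothalamus and 2 higher in hippocampus, beside 13.4% and 14.5% of all compared symbols. The other 8 were not called, and the median was −0.20. Slc1a1, the neuronal glutamate transporter, was at 75.9 ± 10.05 FPKM in hippocampus, against 23.9 ± 6.09 FPKM in hypothalamus. The most abundant gene of the list by the higher of its tissue means, the aspartate aminotransferase Got1, was at 272 ± 25.04 and 215 ± 32.1 FPKM and was not called. The gene called higher in hypothalamus was Slc38a5, a glutamine transporter, at 1.03 ± 0.379 against 3.97 ± 0.960 FPKM, named after its values were seen. With loci summed, 2 genes were called higher in hypothalamus and the median was −0.01. It was −0.06 without hypothalamus replicate 1 and −0.30 without hippocampus replicate 4. Slc38a2, with a second locus in hypothalamus, was listed there at 0, 94.1 and 63.2 FPKM, and at 34.6 to 50.2 FPKM in hippocampus. Slc38a2 is also named after its values were seen.

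Gja1 encodes connexin 43 and Gjb6 encodes connexin 30, the pair of connexins that form most gap junctions between astrocytes. Gja1 was at 154, 179, 172 and 198 FPKM in hippocampus and at 125, 199 and 175 FPKM in hypothalamus. The libraries of the tissues overlapped, with a difference of −0.40 on the log2 scale after rescaling. Gjb6 was at 26.5, 28.5, 39.3 and 35.2 FPKM in hippocampus and at 92.8, 112 and 76.3 FPKM in hypothalamus. No libraries overlapped, and the difference was 1.23.

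Gjb6 was accordingly 0.172, 0.159, 0.228 and 0.178 times Gja1 in hippocampus and 0.741, 0.565 and 0.437 times in hypothalamus. Connexin 30 RNA was thus a small part of the pair in hippocampus and closer to that of connexin 43 in hypothalamus. Both genes have a single locus in each table, so this ratio does not depend on how loci are joined. Among 8 other gap junction and junction scaffold genes compared, 0 were called in either direction. This count rested on single libraries. Gjb1 (connexin 32 of oligodendrocytes), with a second locus in hypothalamus, was at 5.47 to 9.59 FPKM in hippocampus and listed at 0, 18.0 and 20.1 FPKM in hypothalamus, a difference of −0.82. Without hypothalamus replicate 1 it was 1.01, and with loci summed 1.25, and Gjb1 was called higher in hypothalamus. Gjb2 was called higher in hypothalamus without hippocampus replicate 3 or without hypothalamus replicate 3. Both are named after their values were seen. The most abundant by the higher of its tissue means, the scaffold gene Tjp1, was at 39.6 ± 5.77 FPKM in hippocampus, against 29.5 ± 4.64 FPKM in hypothalamus.

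The connexin promoters are shown for the same reason as those of the transporters, with CpG in capitals. Gja1 lies at chr20:36302314-36302613 (plus strand) and Gjb6 at chr15:35410089-35410388 (minus strand) in GRCr8.
Gja1: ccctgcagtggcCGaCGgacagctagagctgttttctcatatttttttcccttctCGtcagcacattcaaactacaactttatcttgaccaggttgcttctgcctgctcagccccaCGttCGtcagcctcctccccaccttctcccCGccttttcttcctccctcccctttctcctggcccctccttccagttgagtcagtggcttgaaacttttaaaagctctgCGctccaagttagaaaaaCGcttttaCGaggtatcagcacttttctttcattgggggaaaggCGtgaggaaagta
Gjb6: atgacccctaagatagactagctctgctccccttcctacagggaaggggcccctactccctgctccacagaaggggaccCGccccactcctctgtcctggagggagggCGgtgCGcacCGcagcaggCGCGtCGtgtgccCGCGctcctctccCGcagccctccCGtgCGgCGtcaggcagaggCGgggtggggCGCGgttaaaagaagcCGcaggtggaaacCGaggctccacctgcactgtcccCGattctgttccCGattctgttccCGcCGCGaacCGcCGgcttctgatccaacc
The Gjb6 promoter is 67.0% G or C with 25 CpG, reached by 17.9% of promoters, and the Gja1 promoter is 50.3% G or C with 10 CpG, reached by 44.1%. In each pair the gene that was called between the tissues has the promoter richer in CpG, although Slc1a2 was higher in hippocampus and Gjb6 in hypothalamus. This is a description of 4 promoters, each at the first start listed. RefSeq lists 2 starts for Slc1a2, 3 for Slc1a3, 1 for Gja1 and 2 for Gjb6. Which of them these tissues use was not tested. Of the other 5 promoters, those of the called genes Aldh1l1 and Aqp4 hold 10 and 5 CpG, and those of Glul, Gfap and S100b, which were not called, hold 15, 6 and 5 CpG.

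**Figure D2:**
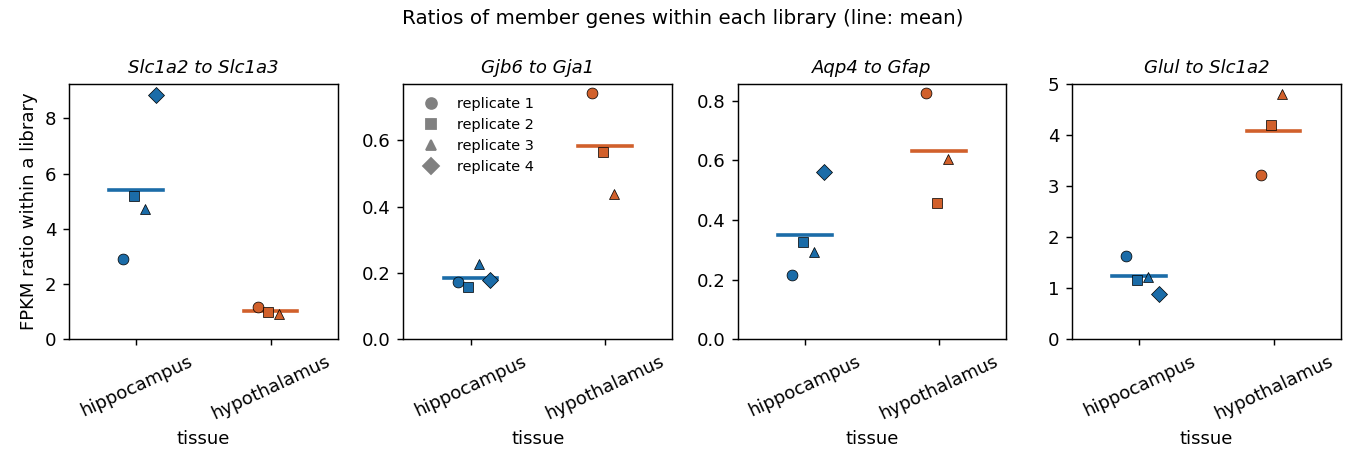
FPKM ratio of paired genes within each library, by tissue, with replicates as symbols and the mean as a line. Slc1a2 to Slc1a3, Gjb6 to Gja1 and Glul to Slc1a2 do not overlap between the tissues, whereas Aqp4 to Gfap spans 0.218 to 0.560 in hippocampus and 0.458 to 0.827 in hypothalamus and overlaps.

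Aqp4 encodes the water channel that is concentrated in astrocyte endfeet. It was at 72.2, 87.9, 84.4 and 106 FPKM in hippocampus and at 272, 272 and 197 FPKM in hypothalamus. No libraries overlapped, and the difference was 1.19 on the log2 scale after rescaling. Its second locus read 0.682, 16.2, 5.29 and 28.2 FPKM in hippocampus and 0.118, 46.3 and 53.4 FPKM in hypothalamus, lowest in replicate 1 of both tissues. With loci summed Aqp4 was at 72.9 to 134 and 250.05 to 318 FPKM, again without overlap. The second loci of Slc1a2 and Slc1a3 were also lowest in replicate 1 wherever listed. Values of 0 for Slc38a2 and Gjb1 in hypothalamus and for Slc12a2 in hippocampus were likewise in replicate 1. The cause was not tested. Of 6 genes compared from the complex that anchors this channel at endfeet, 0 were called. The most abundant of them by the higher of its tissue means, dystroglycan (Dag1), was at 36.8 ± 2.13 and 30.6 ± 6.73 FPKM.

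Among 11 genes of potassium and water balance, 3 were called higher in hypothalamus and 0 in hippocampus, with a median of 0.34. The median gene was Slc12a2, a sodium potassium chloride cotransporter with a second locus in hippocampus, listed at 0, 34.8, 24.1 and 72.7 FPKM in hippocampus and at 28.5, 17.2 and 12.7 FPKM in hypothalamus. Its difference was 0.34, but −1.36 without hippocampus replicate 1 and −1.68 with loci summed, when it was called higher in hippocampus, and the median of the list with loci summed was −0.23. Leaving out 1 library gave 0 to 2 genes called higher in hippocampus (2 without replicate 2 of hippocampus, 1 without replicate 1 of either tissue). Hippocampal Kcnj16, an inwardly rectifying potassium channel subunit, was at 3.67 ± 0.829 FPKM and the hypothalamic level was 67.9 ± 6.85 FPKM. Atp1b2, the beta subunit of the glial sodium pump, was at 252 ± 46.5 against 807 ± 210.3 FPKM. Slc4a4, a sodium bicarbonate cotransporter, was at 28.8 ± 7.52 against 80.1 ± 9.14 FPKM. Atp1b2 and Slc4a4 have a second locus in the hypothalamus table. Slc12a2 is named after its values were seen.

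Gfap encodes the intermediate filament used as the classical astrocyte stain. It was at 332, 269, 289 and 189 FPKM in hippocampus and at 329, 593 and 325 FPKM in hypothalamus. Hypothalamus replicate 2 was the high library, and the others overlapped between tissues. The difference was 0.29 on the log2 scale after rescaling and −0.01 without hypothalamus replicate 2. The direction rested on that 1 library. In that library the meninges list also had its highest summed level of the hypothalamus, 423 FPKM against 78.1 and 197 FPKM, with 1 of its 8 genes at 0. Whether this bears on Gfap was not tested. Of 4 other filament genes of glia, 2 were called higher in hypothalamus and 0 in hippocampus. Vimentin (Vim), abundant in immature glia, ependyma and tanycytes, was at 26.6, 31.2, 127 and 37.3 FPKM in hippocampus and at 325, 410 and 183 FPKM in hypothalamus. The other was nestin (Nes), at 0.328 ± 0.150 and 2.07 ± 0.616 FPKM, named after its values were seen. Without replicate 3 of either tissue, 3 of 4 were called. The filament genes varied with the meninges list between libraries, 4 of 4 being highest in hippocampus replicate 3, 3 of 4 highest in hypothalamus replicate 2 and 4 of 4 lowest in hypothalamus replicate 3, where 5, 6 and 6 of 6 meninges genes were so. The part of meninges in them was not tested.

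S100b encodes a calcium-binding protein of astrocytes and some oligodendrocytes. It was the most abundant of the 10 genes in both tissues, at 1165, 1115, 1094 and 736 FPKM in hippocampus and at 873, 1262 and 1320 FPKM in hypothalamus. The tissues overlapped, and the difference was −0.13 after rescaling and 0.16 in FPKM as deposited. Of 7 relatives in the S100 family, 3 were called higher in hypothalamus and 1 in hippocampus. S100a11 was at 0.768 ± 0.546 FPKM in hippocampus, against 102 ± 39.8 FPKM in hypothalamus, S100a10 at 12.7 ± 4.13 against 58.6 ± 14.4 FPKM, and S100a1 at 54.7 ± 10.2 against 134 ± 16.3 FPKM. S100a6 went the other way, at 84.2 ± 74.8 against 7.89 ± 2.94 FPKM, with hippocampus replicate 3 at 191 FPKM. Of the 7 relatives, 6 were highest in hippocampus replicate 3 and 6 were lowest in hypothalamus replicate 3. Meninges genes moved with them, with 5 of 6 highest and 6 of 6 lowest in those libraries, and the meninges list summed to 275 FPKM in hippocampus replicate 3 against 32.1 to 97.9 FPKM in the other hippocampus libraries. S100a1, close to the 2-fold line, lost its call without hippocampus replicate 1 or 4 or hypothalamus replicate 1 or 2. That left 2 of 7 called higher in hypothalamus, with S100a6 still called higher in hippocampus. The part of meninges in these S100 levels was not tested.

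Aldh1l1 encodes a folate-metabolising dehydrogenase and is used as a broad astrocyte marker. It had the lowest level of the 10 genes in both tissues, at 16.5, 16.5, 14.97 and 12.4 FPKM in hippocampus and at 59.0, 46.0 and 36.3 FPKM in hypothalamus. No libraries overlapped, and the difference was 1.30 on the log2 scale.

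Agt encodes angiotensinogen, the precursor of the angiotensin peptides, which astrocytes make in the brain. It was at 70.4, 61.1, 55.5 and 44.7 FPKM in hippocampus and at 937, 893 and 1034 FPKM in hypothalamus. The lowest hypothalamus library was 12.7 times the highest hippocampus library in deposited FPKM. The mean was 57.9 ± 10.7 FPKM (SD, n = 4) in hippocampus and 955 ± 72.0 FPKM (SD, n = 3) in hypothalamus, a difference of 3.75 on the log2 scale after rescaling, and 72 of the 10736 compared symbols (0.671%) had a larger one towards hypothalamus. Agt formed 1.46% to 2.11% of the summed FPKM of the 10 genes in hippocampus libraries and 19.0% to 23.5% in hypothalamus libraries. By abundance it ranked 1236 among 16153 symbols in hippocampus and 41 among 16163 in hypothalamus.

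Among the other genes of the renin-angiotensin system, calls went in both directions. Of 11 found in both tables, 7 passed the filter. Of these, 1 was called higher in hypothalamus and 1 in hippocampus, beside 13.4% and 14.5% of all compared symbols. Atp6ap2, the prorenin receptor, was at 281 ± 55.1 FPKM in hippocampus, against 160.4 ± 46.7 FPKM in hypothalamus, and was not called without hypothalamus replicate 3. The gene called higher in hypothalamus was Agtr1a, an angiotensin II receptor, at 0.290 ± 0.162 against 3.09 ± 0.242 FPKM. Ace, the converting enzyme, which was not called, read 20.4, 3.12, 45.8 and 19.4 FPKM in hippocampus and 5.65 to 6.31 FPKM in hypothalamus. Its lowest hippocampus library, replicate 2, was also the one with the lowest choroid plexus level, and without it Ace was called higher in hippocampus. Agtr1a and Ace are named here after their values were seen.

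**Figure D3:**
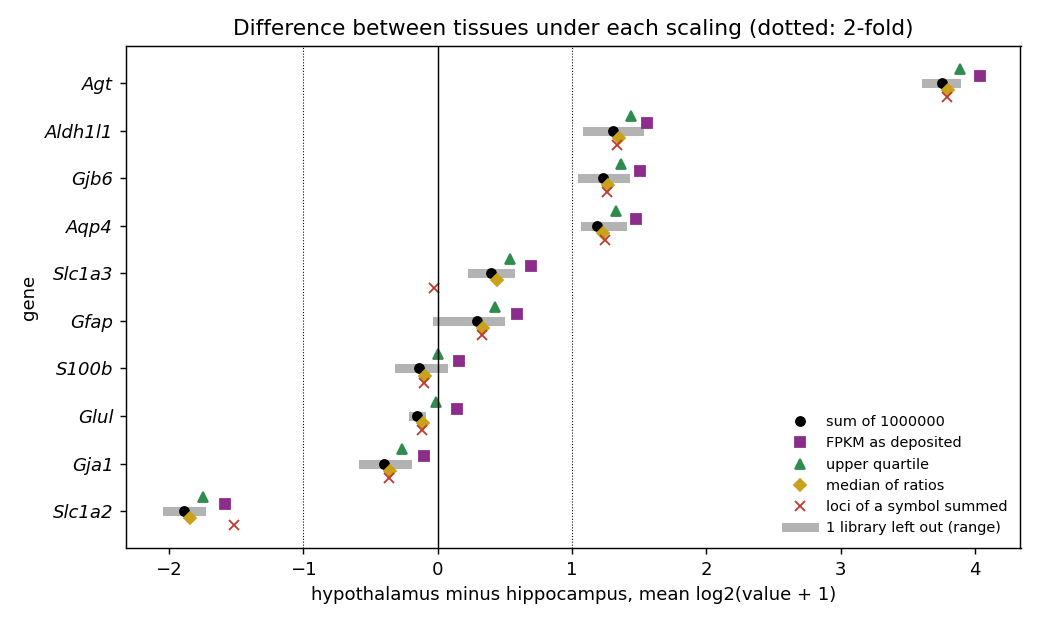
Difference between tissues (hypothalamus minus hippocampus, mean log2(value + 1)) of each astrocyte gene under the 4 scalings and with loci summed, with the range over leaving out 1 library in grey. Agt, Aldh1l1, Gjb6 and Aqp4 lie beyond the 2-fold line throughout and Slc1a2 beyond it on the other side, while Gfap, Slc1a3, Glul and S100b each have at least 1 setting on the other side of 0.

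The order of the 10 levels also differed by tissue. In hippocampus it was S100b, Glul, Slc1a2, Gfap, Gja1, Slc1a3, Aqp4, Agt, Gjb6 and Aldh1l1 by mean FPKM. In hypothalamus it was S100b, Agt, Glul, Gfap, Aqp4, Slc1a2, Slc1a3, Gja1, Gjb6 and Aldh1l1. Among neighbours in the hippocampus order, 4 of 9 pairs had no overlap of libraries, namely Slc1a2 above Gfap, Aqp4 above Agt, Agt above Gjb6, and Gjb6 above Aldh1l1. The order among S100b, Glul and Slc1a2 and that from Gfap to Aqp4 was within the spread of neighbours. In hypothalamus S100b, Agt and Glul overlapped in turn, as did Aqp4, Slc1a2 and Slc1a3, and the other 5 neighbouring pairs did not. The 10 genes summed to 3059 to 3382 FPKM in hippocampus and to 3993 to 4701 FPKM in hypothalamus.

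Within hippocampus the genes fell into opposite orders across the replicates. Gfap, Slc1a3, Glul, S100b and Agt were highest in replicate 1 and lowest in replicate 4, whereas Aqp4, Slc1a2 and Gja1 were lowest in replicate 1 and highest in replicate 4. Replicates 1 and 4 were thus at opposite ends for 8 of 10 genes, and for 44.6% of the 11197 hippocampal loci of at least 1 FPKM (21% with replicate 1 highest, 23.7% with replicate 4 highest). Deviations from the tissue mean on the log2 scale were 0.33 in replicate 1 and −0.48 in replicate 4 for Gfap, 0.39 and −0.43 for Slc1a3, and −0.39 and 0.39 for Slc1a2, and S100b was at −0.46 in replicate 4. Of the 7 genes with a single locus in hippocampus, 5 showed the pattern (Gfap, Gja1, Glul, S100b and Agt) and Aldh1l1 and Gjb6 did not, beside 44.3% of the loci of single-locus symbols. With loci summed, replicate 1 was no longer highest for Slc1a3, at 174 FPKM against 208 FPKM in replicate 2. For Glul, replicate 4 was lowest by a narrow margin, at 776.824 FPKM against 777.471 FPKM in replicate 3. The Slc1a2 to Slc1a3 ratio ran from 2.92 to 8.86 among libraries of the same group, and from 2.91 to 5.34 with loci summed. Of the neuron list, 4 of 9 genes were highest and the other 5 lowest in replicate 4, and all 5 ependyma genes compared were lowest there, as were 6 of 8 microglia genes and 10 of 18 further astrocyte markers. Over all loci replicate 4 was highest for 34.5% and lowest for 35%. In replicate 1, 5 of 8 microglia genes were highest, beside 29.7% of loci. The part of these cells in the pattern was not tested. In hypothalamus, replicate 3 was lowest for 6 of 10 genes, and for 30.7% of loci.

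**Figure D4:**
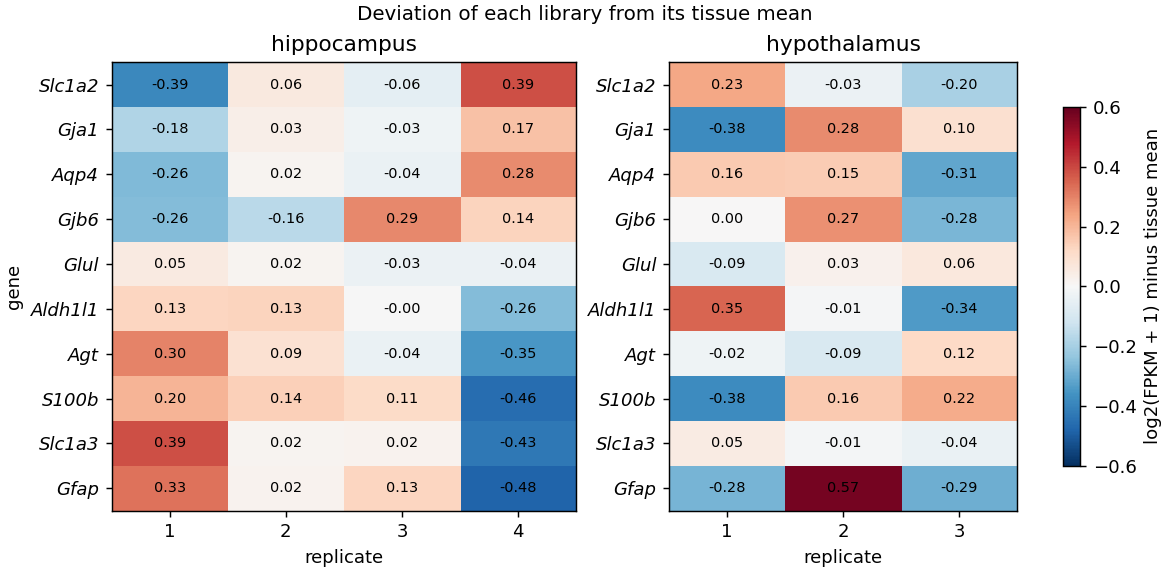
Deviation of each library from the mean of its tissue, in log2(FPKM + 1), for the 10 astrocyte genes (rows) and replicates (columns), red above and blue below. In hippocampus the upper rows (Slc1a2, Gja1, Aqp4) run from blue in replicate 1 to red in replicate 4 and the lower rows (Agt, S100b, Slc1a3, Gfap) the reverse, while in hypothalamus the highest value is Gfap in replicate 2 at 0.57.

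The SD of log2(FPKM + 1) over replicates had a median over the 10 genes of 0.26 in hippocampus and 0.27 in hypothalamus, beside 0.24 and 0.25 over all loci of at least 1 FPKM. The median over the 10 genes was 0.15 without hippocampus replicate 4. It was 0.14 without hypothalamus replicate 1, from replicates 2 and 3 alone. Of all loci, hippocampus replicate 4 was highest for 34.5% and lowest for 35%, and hypothalamus replicate 1 for 43.1% and 37.6%. Glul was the least variable in hippocampus, with an SD of 0.04 (0.831% of loci were lower), and Slc1a3 in hypothalamus, with 0.05. Gfap was the most variable in both, with 0.34 and 0.50. The mean level over the 10 genes was nearly constant over 3 hippocampus libraries, at 7.32, 7.33 and 7.33 in replicates 1 to 3, and was 7.19 in replicate 4.

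A wider set of 22 astrocyte markers was examined beside the 10 genes. Of the 18 compared, 8 were called higher in hypothalamus, 2 higher in hippocampus and 8 were not called, with a median of 0.78 towards hypothalamus. Slc6a11, the GABA transporter GAT-3 of astrocytes, was at 36.8 ± 4.16 FPKM in hippocampus, against 279.8 ± 50.3 FPKM in hypothalamus. Apoe, the main lipid carrier of the brain, was at 777 ± 268 against 3995 ± 720.4 FPKM, and clusterin (Clu) at 544 ± 147 against 1907 ± 248 FPKM. Higher in hippocampus were Fgfbp3, at 10.7 ± 2.09 against 5.68 ± 1.23 FPKM, and Dio2, the enzyme that activates thyroid hormone, at 8.45 ± 1.496 against 4.801 ± 1.11 FPKM. Without hypothalamus replicate 3 neither was called, and Dio2 was not called without hippocampus replicate 4 or hypothalamus replicate 1 either. Genes called higher in hypothalamus numbered 6 without hippocampus replicate 4 and 9 without hippocampus replicate 1.

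Transcription factors of the astrocyte lineage included 1 of 10 called higher in hypothalamus and 2 called higher in hippocampus. Hes5, a Notch target, was at 3.45 ± 0.950 FPKM in hippocampus, against 32.1 ± 8.04 FPKM in hypothalamus. Lhx2, a LIM homeobox factor of the forebrain, was at 49.0 ± 5.35 against 9.68 ± 3.12 FPKM, and Nfib at 30.4 ± 6.90 against 13.9 ± 2.17 FPKM. Id2, the most abundant, was at 75.5 ± 7.97 and 93.3 ± 20.8 FPKM and was not called. Without hypothalamus replicate 2, 4 of the 10 were called higher in hippocampus, and 3 without hippocampus replicate 4 or hypothalamus replicate 3. Of 7 genes linked to reactive astrocytes, 1 was called higher in hypothalamus, Timp1 at 3.04 ± 2.17 against 20.9 ± 9.12 FPKM, and 0 in hippocampus. Without replicate 3 of either tissue, 2 were called higher in hypothalamus, and without hypothalamus replicate 1, 1 was called higher in hippocampus. The reactive genes also varied with the meninges list between libraries, 5 of 7 being highest in hippocampus replicate 3, 5 of 7 highest in hypothalamus replicate 2 and 7 of 7 lowest in hypothalamus replicate 3, where 5, 6 and 6 of 6 meninges genes were so. The part of meninges in them was not tested.

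**Figure D5:**
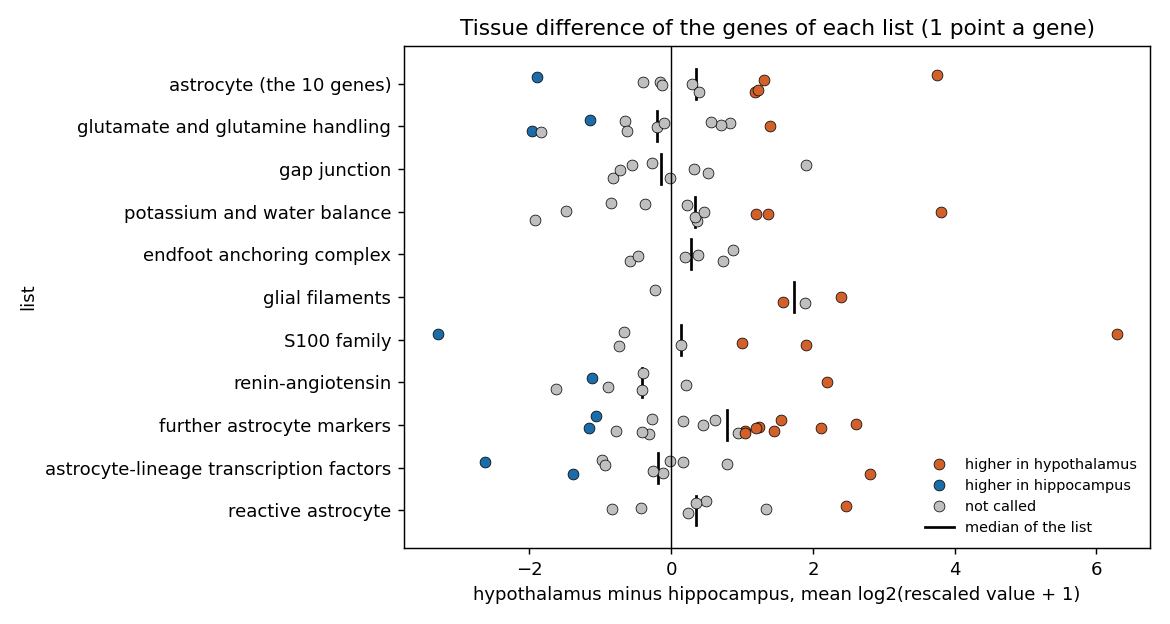
Tissue difference (hypothalamus minus hippocampus, mean log2(rescaled value + 1)) of every compared gene of the astrocyte list and of the 10 related lists, 1 point a gene, with the list median as a black line. The wider astrocyte markers centre at 0.78 and the glutamate handling genes at −0.20 (−0.01 with loci summed), and most lists hold genes on both sides of 0.

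Cells that line the third ventricle share some of these genes, so their markers are given beside the genes higher in hypothalamus. Of 5 ependyma genes compared, 3 were called higher in hypothalamus and 1 in hippocampus, with a median of 1.62, and the list summed to 69.1 to 139 FPKM in hippocampus and 80.0 to 120 FPKM in hypothalamus. Of 6 tanycyte genes, 1 was called in each direction (2 higher in hypothalamus with loci summed), and the list summed to 263 to 352 and 74.2 to 104 FPKM. Most of the hippocampal sum was Crym, which encodes a thyroid hormone-binding crystallin, at 260.3 ± 44.9 FPKM against 31.2 ± 14.4 FPKM, and Crym was the gene called higher in hippocampus. Rax, which defines tanycytes, had listed values of 0 in each of the 4 hippocampus libraries and was at 1.70 to 6.21 FPKM in hypothalamus. Rax and Crym are named after their values were seen. Neuron genes had a median of −0.77, with 1 of 9 called higher in hypothalamus and 2 in hippocampus, or 4 in hippocampus with loci summed. Oligodendrocyte genes had a median of 0.26, or 0.08 to 0.44 with 1 library left out, and 1 of 8 was called higher in hypothalamus. Microglia genes had a median of 0.49, with 1 of 8 called so, or 2 of 8 without replicate 1 of either tissue or replicate 3 of hippocampus. Endothelial genes had a median of −0.83, with 3 of 6 called higher in hippocampus. Choroid plexus genes had a median of −3.04 and meninges genes a median of 1.204 towards hypothalamus, with libraries overlapping for each of the 7 and 6 genes compared and 0 called. Without hippocampus replicate 2, all 7 choroid plexus genes were called higher in hippocampus. Meninges genes called higher in hypothalamus were 3 without hippocampus replicate 3 and 2 without hypothalamus replicate 3. The meninges median ranged from 0.66 to 1.88 with 1 library left out. Of 3 genes of oligodendrocyte precursors, 0 were called, with a median of 0.07, or −0.01 to 0.33 with 1 library left out. The part of these cells in the levels of the astrocyte genes was not tested.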

How the data were processed

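RNA sequencing of 7 libraries was analysed, 4 of hippocampus and 3 of hypothalamus. The values are FPKM that the authors computed and deposited as 1 table per tissue. Per the submitters' processing notes, TopHat, Bowtie, Cufflinks, Cuffdiff, TopHat2 and Bowtie2 and the build rn5 were used. The annotation, the scaling between libraries and the strand setting are not given in the sources used here, so reads of overlapping loci of a symbol cannot be told apart. Loci without an OK status in all libraries were left out (86 in hippocampus, 24 in hypothalamus), and the locus with the highest mean stood for a symbol.

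Each library was rescaled to 1000000 over the symbols in both tables and compared as log2(value + 1), which understates differences of low genes. Symbols were compared where either tissue averaged 1 FPKM or more. No test was run between tissues, because the tables were treated as normalized separately. FPKM carries no counts, so depth is unknown. The calling step was tested on simulated data with independent noise, without the replicate patterns or second loci of these data. That checks the code and not the calls reported here. Python 3.11.15 with pandas 2.3.3 and numpy 2.4.6 was used.

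The genes and lists were chosen with earlier results of these data known. Named genes are the 10 astrocyte genes and, per related list, the most abundant gene and up to 3 called genes in each direction averaging 5 FPKM or more where higher, except 1 that is not reported here. Genes were matched by symbol or synonym. Promoters came from a RefSeq table of the build GRCr8, which held 9 of the 10 genes. Alternatives covered scaling, pseudocount, loci, low values and replicates left out, and those for the related and cell type lists were chosen after seeing the data.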

Additional observations from a re-analysis of the deposited data

Results flagged for a closer look

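In hippocampus, 71 sets of 4 values (genes, ratios, shares and list levels) were examined for a library standing apart by the gap to its nearest neighbour over the whole range, and 6 passed the critical value of 0.829, where chance gives about 1 in 20, or 3.55. The values are not independent of one another.

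S100b was low in replicate 4 (ratio 0.834), at 736 FPKM against 1094 to 1165 FPKM. The mean level of the astrocyte list was also lowest in replicate 4 (ratio 0.954), at 7.19 against 7.32 to 7.33, where the closeness of the other 3 libraries sets the ratio. Replicate 3 was high in Vim (ratio 0.893), at 127 FPKM against 26.6 to 37.3 FPKM, in the reactive astrocyte list (ratio 0.847), at 1.90 against 1.36 to 1.44, and in the endothelial list (ratio 0.842), at 4.30 against 3.89 to 3.96. The meninges list had its highest hippocampal level in the same library, at 3.6 against 1.57 to 2.22. The choroid plexus list was low in replicate 2 (ratio 0.840), at 1.07 against 4.64 to 5.31.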

How the results depend on the processing

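Of the 10 genes, Agt, Aldh1l1, Gjb6, Aqp4 and Slc1a2 kept their direction under each of the 14 alternatives tried, with ranges of 3.63 to 4.04, 1.11 to 1.56, 1.08 to 1.51, 1.02 to 1.48 and −2.14 to −1.51. Gja1 kept its direction too, from −0.56 to −0.10. Gfap, Slc1a3 and Glul kept it in 13 of 14 and S100b in 10 of 14. Glul reversed to 0.15 in FPKM as deposited. That scaling also moved the median of all compared symbols from −0.05 to 0.21, the symbols called higher in hippocampus from 1560 to 928, the share of calls towards hypothalamus from 48.0% to 66.2%, and the tissue difference of the mean level of the 10 genes from 0.56 to 0.85. With no minimum fold, 2 of the 10 genes were higher in hippocampus, Glul beside Slc1a2. With loci summed, the difference in the log2 ratio of Slc1a2 to Slc1a3 went from −2.29 to −1.49.

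The median spread of the 10 genes ranged from 0.15 to 0.30 in hippocampus, lowest without replicate 4, and from 0.14 to 0.25 in hypothalamus, lowest without replicate 1, when 1 library was left out. It was 0.14 in hypothalamus without replicate 1 of both tissues. As a coefficient of variation it was 18.4% in hippocampus and 18.4% in hypothalamus. The cause of these shifts was not tested. No paired analysis was possible because the labels do not say that libraries of the same number share an animal, and tables treated as normalized separately were not tested against each other. Depth is unknown, so it cannot be said which low values are limited by it.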
